A study of Mus musculus with 4 samples.

Results

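Levels of 10 genes for signals that liver endothelial and mesenchymal cells send to their neighbours were described in single cells of mouse liver. They were the Wnt ligands Wnt2 and Wnt9b, the Wnt amplifier Rspo3, the BMP ligands Bmp2, Bmp6 and Gdf2, the Notch ligands Dll4 and Jag1, the growth factor gene Hgf, and Dkk3, a member of the Dickkopf family. The members were chosen by gene symbol, and all 10 were found among the 31053 genes of the deposited count tables. They were followed in 26558 cells, left from 28199 barcodes that had at least 300 genes, at least 500 UMIs (unique molecular identifiers, each counting 1 captured mRNA molecule) and at most 30% mitochondrial UMIs.

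The study followed the course from obesity to hepatocellular carcinoma (HCC) in C57BL/6 mice fed CD-HFD. It holds 1 droplet single-cell library for each of 4 groups: CD-HFD with low AFP, a high-AFP library, a cell suspension from the HCC region, and control diet. AFP is alpha-fetoprotein, a fetal liver protein that some liver tumours make. All titles give 15 months, whereas the age field gives 17, and the title of the high-AFP library names the control diet while its deposited table is named for CD-HFD, so the libraries are called here low-AFP, high-AFP, HCC and control. A protocol given with every sample joined Percoll-enriched parenchymal cells with sorted live non-parenchymal cells in equal parts, and whether this also held for the HCC suspension is not stated. The number of mice behind a library is not given. With 1 library a group no difference has a replicate check, every difference is one between libraries, and all intervals cover counting error only.

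In the healthy liver, endothelial cells around the central vein secrete WNT2, WNT9B and R-spondin 3, which keep the Wnt programme of the adjoining pericentral hepatocytes running. Sinusoidal endothelial cells secrete BMP2 and BMP6, which drive hepatocytes to make hepcidin, the iron hormone encoded by Hamp. Hepatic stellate cells are a source of HGF and of BMP9, the product of Gdf2, and DLL4 and JAG1 on endothelial or biliary cells activate Notch receptors on the cells they touch.

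The low-AFP, high-AFP, HCC and control libraries kept 5129, 7902, 7491 and 6036 cells, with medians of 7395, 6292.5, 4686 and 5442 UMIs a cell. Cells were clustered without the 10 members, and clusters were named from marker lists. Sinusoidal endothelial-like cells, which expressed all 8 sinusoidal markers at 10 CPM (counts per 1000000 nuclear-encoded UMIs of the summed cells) or more in the low-AFP, high-AFP and control libraries, numbered 619, 1043, 7 and 1334. Large-vessel endothelial-like cells numbered 209, 236, 94 and 169 and fell into cluster 16 (169, 147, 4 and 132 cells) and cluster 25 (40, 89, 90 and 37 cells). The name of cluster 16 is unsure: its marker scores were nearly tied, at 2.225 for large-vessel and 2.132 for sinusoidal endothelium, and a cluster led by the same genes was named sinusoidal endothelial-like at a finer clustering, so its values are given by cluster number. Cluster 25 scored 2.962 for large-vessel and 1.254 for sinusoidal endothelium. Both classes together were 16.1%, 16.2%, 1.35% and 24.9% of cells, shares that the mixing and sorting of the suspensions can set. Cells over the mitochondrial limit made up 42.0%, 26.5%, 8.19% and 42.7% of barcodes. The 7 sinusoidal cells of the HCC library are too few to compare, so the HCC comparisons rest on cluster 25.

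Most UMIs of 5 of the members came from endothelial-like cells in all 4 libraries. In the low-AFP, high-AFP, HCC and control libraries these cells held 95.2%, 95.6%, 97.3% and 90.6% of the Wnt2 UMIs. They held 99.2%, 98.9%, 100% and 96.6% of those of Wnt9b. For Rspo3 the shares were 95.9%, 96.7%, 95.7% and 70.3%. Endothelial-like cells thus held at least 70.3% of the UMIs of these 3 Wnt-side genes in each library, although they were 1.35% of the HCC cells. Of the Bmp2 UMIs they held 95.2%, 95.4%, 71.5% and 91.1%, and of the Dll4 UMIs 94.3%, 95.4%, 86.4% and 93.0%. The other members had further sources, which differed between libraries: endothelial-like cells held 63.0%, 72.3%, 7.05% and 50.4% of the Hgf UMIs. They held 49.5%, 61.0%, 16.5% and 65.3% of the Jag1 UMIs. Gdf2 was mostly elsewhere, with 7.89%, 4.76%, 0% and 7.38% in endothelial-like cells.

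**Figure D1:**
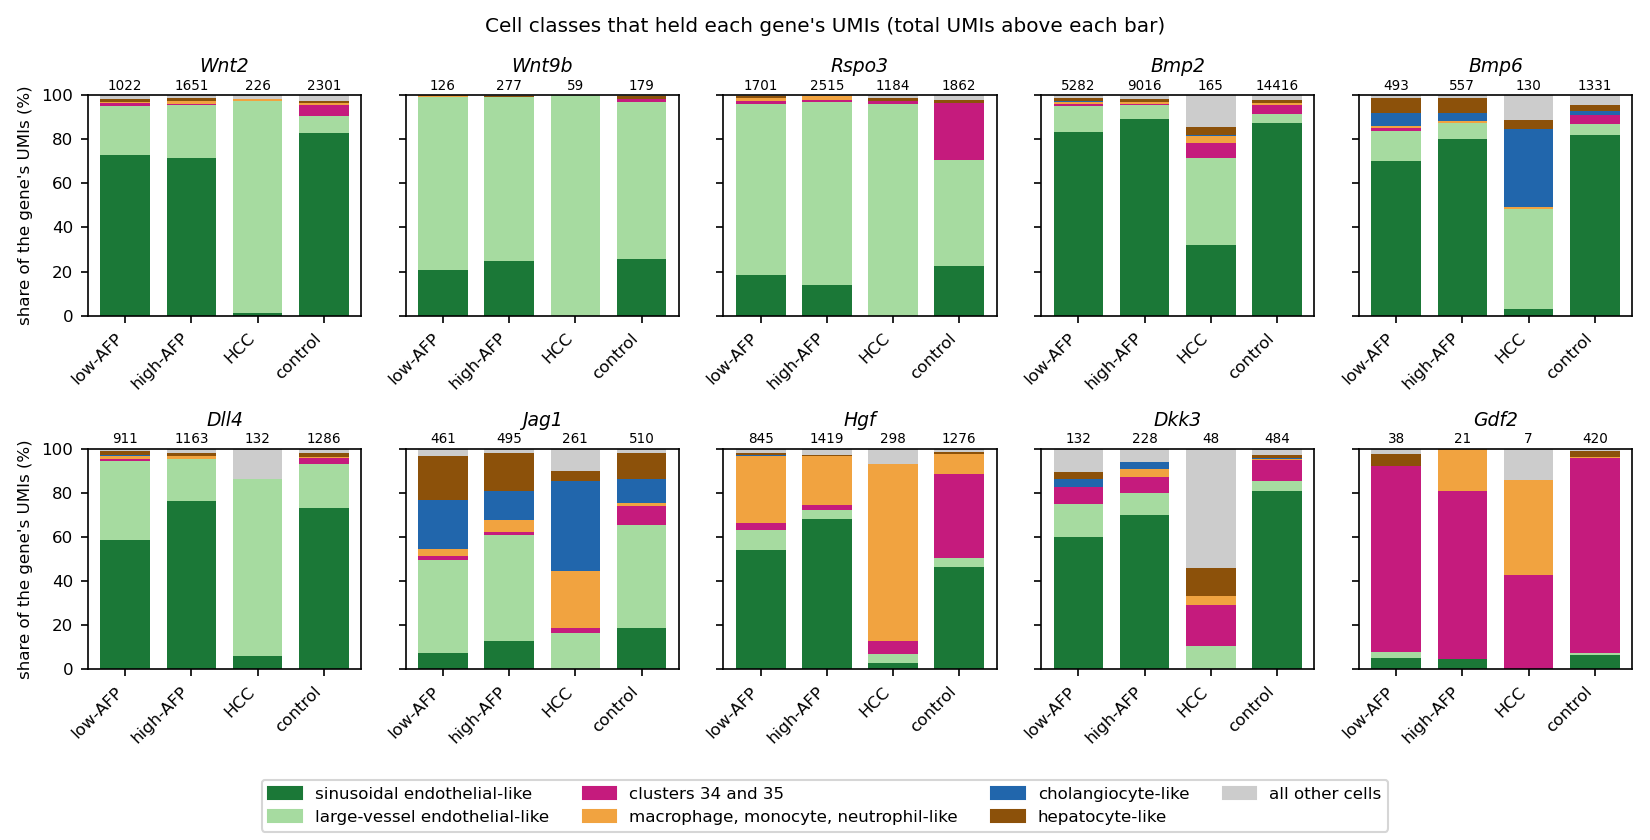
Share of each member's UMIs (vertical axis, percent) that came from each cell class, with 1 stacked bar per library in the order low-AFP, high-AFP, HCC and control and the total UMI count above each bar; macrophage-like, monocyte-like and neutrophil-like cells share 1 colour, as do clusters 34 and 35. Endothelial-like classes fill most of the bars of Wnt2, Wnt9b, Rspo3, Bmp2 and Dll4, while HCC Hgf comes mostly from monocyte-like cells (158 of 298 UMIs) and control Gdf2 from mesenchymal-like cells and cluster 34.

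Wnt2, a ligand of the canonical Wnt pathway, was highest in cluster 25, at 649 CPM in low-AFP cells (95% Poisson interval 564 to 743), 695 in high-AFP cells (628 to 767), 292 in HCC cells (254 to 333) and 720.2 in control cells (611 to 843). In sinusoidal endothelial-like cells it stood at 266 CPM in the low-AFP, 259 in the high-AFP and 354 in the control library. Within cluster 4 of that class, which held 173 of the 1334 control cells, Wnt2 had 252, 257 and 160 CPM. In cluster 8, which held 1161 control and 87 low-AFP cells, it had 383 CPM in control and 371 in low-AFP cells. Wnt9b, the partner ligand of central-vein endothelium, had 305, 361, 79.3 and 585 CPM in cluster 25 of the low-AFP, high-AFP, HCC and control libraries. Both ligands were therefore lowest in the HCC cells of cluster 25, and their intervals there did not overlap those of any other library. In cluster 16 Wnt9b was at 0 UMIs in the low-AFP, high-AFP and HCC cells and at 3.06 CPM in control cells. In sinusoidal endothelial-like cells Wnt9b had 9.31, 15.2 and 8.55 CPM in the low-AFP, high-AFP and control libraries. Cluster 25 held 211 of 1022, 395 of 1651, 217 of 226 and 154 of 2301 Wnt2 UMIs in the low-AFP, high-AFP, HCC and control libraries, and 99 of 126, 205 of 277, 59 of 59 and 125 of 179 Wnt9b UMIs. So most Wnt2 UMIs outside the HCC library lay in other cells than cluster 25, whereas most Wnt9b UMIs lay in it.

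The 250 bases before the start of Wnt2 and Wnt9b are shown because both ligands had their highest level in cluster 25, while Wnt2 but not Wnt9b was also abundant in sinusoidal endothelial-like cells. They come from RefSeq with the build GRCm38.p6 and were used for their letters only, as the submitters' processing notes name mm9. The Wnt2 window is chr6:18030446-18030695 and the Wnt9b window chr11:103749822-103750071, both on the minus strand and written 5′ to 3′ in the direction of the gene, with the GATA-type motif GATAA in capitals (TTATC when it lies on the opposite strand).
Wnt2: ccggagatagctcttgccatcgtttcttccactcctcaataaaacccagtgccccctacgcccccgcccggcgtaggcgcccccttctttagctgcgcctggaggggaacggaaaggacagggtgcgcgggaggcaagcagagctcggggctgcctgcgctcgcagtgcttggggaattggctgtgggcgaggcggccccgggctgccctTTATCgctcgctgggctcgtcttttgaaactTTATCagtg
Wnt9b: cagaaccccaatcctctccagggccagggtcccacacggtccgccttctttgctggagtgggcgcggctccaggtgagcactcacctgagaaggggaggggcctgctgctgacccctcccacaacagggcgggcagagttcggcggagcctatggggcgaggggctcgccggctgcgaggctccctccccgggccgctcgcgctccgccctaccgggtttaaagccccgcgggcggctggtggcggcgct
Wnt2 held GATAA on the opposite strand 40 and 9 bases before the start. Wnt9b held none of the 4 motifs searched on both strands: GATAA, found in 22.6% of all 32851 such windows, the ETS-type CCGGAA (12.0%), the RBPJ-type TGGGAA (21.6%) and the TCF-type CTTTGA (13.8%). Of the 7 members with a window in the table, Gdf2 also held GATAA (74 and 42 bases before the start), and 1 of the 2 Hgf windows held TGGGAA. These matches describe letters and not bound sites.

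Rspo3 encodes R-spondin 3, which raises Wnt receptor levels by holding back the ubiquitin ligases that remove them. It was the most abundant Wnt-side member in cluster 25, at 4026 CPM in low-AFP cells (3811 to 4250), 3665 in high-AFP cells (3509 to 3826), 1523 in HCC cells (1435 to 1614) and 3844 in control cells (3586 to 4116). A Rspo3 UMI was seen in 38 of 40 low-AFP, 86 of 89 high-AFP, 45 of 90 HCC and 34 of 37 control cells of cluster 25. In T-like cells, which should lack the gene, at most 0.562% of cells had one. HCC cells of cluster 25 thus held Rspo3 in a smaller share of cells although their median depth, 9263 UMIs, was above the 7867, 6622 and 5989 of the low-AFP, high-AFP and control cells (T-like cells had medians of 4208, 3490, 4140 and 4031.5). With cells thinned to 1000 UMIs, and those with fewer left out, the shares were 100%, 93.3%, 33.8% and 86.5%. In the HCC cells Rspo3, Wnt2 and Wnt9b were found in the same cells: of 45 cells with Rspo3, 33 had Wnt2 and 16 had Wnt9b, while of 45 without Rspo3, 1 had Wnt2 and 0 had Wnt9b. The cells with Rspo3 were also deeper, with a median of 11649 UMIs against 4853.

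Outside the endothelium Rspo3 was seen in the control library in cluster 34, an unnamed cluster led by Dcn and Col3a1, at 932 CPM in 34 cells, and in the mesenchymal-like cluster 35 at 517 CPM in 55 cells. Those 2 clusters held 10.6% and 15.3% of the control Rspo3 UMIs. The low-AFP, high-AFP and HCC libraries held 3, 2 and 0 cells of cluster 35 and 5, 10 and 11 of cluster 34. No Rspo3 level is therefore compared there. In cluster 16, Rspo3 was at 6.01 CPM in low-AFP cells and 1.505 in high-AFP cells, against 104 in control cells, where 68 UMIs lay in 7 cells and 34 of them in 1 cell.

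**Figure D2:**
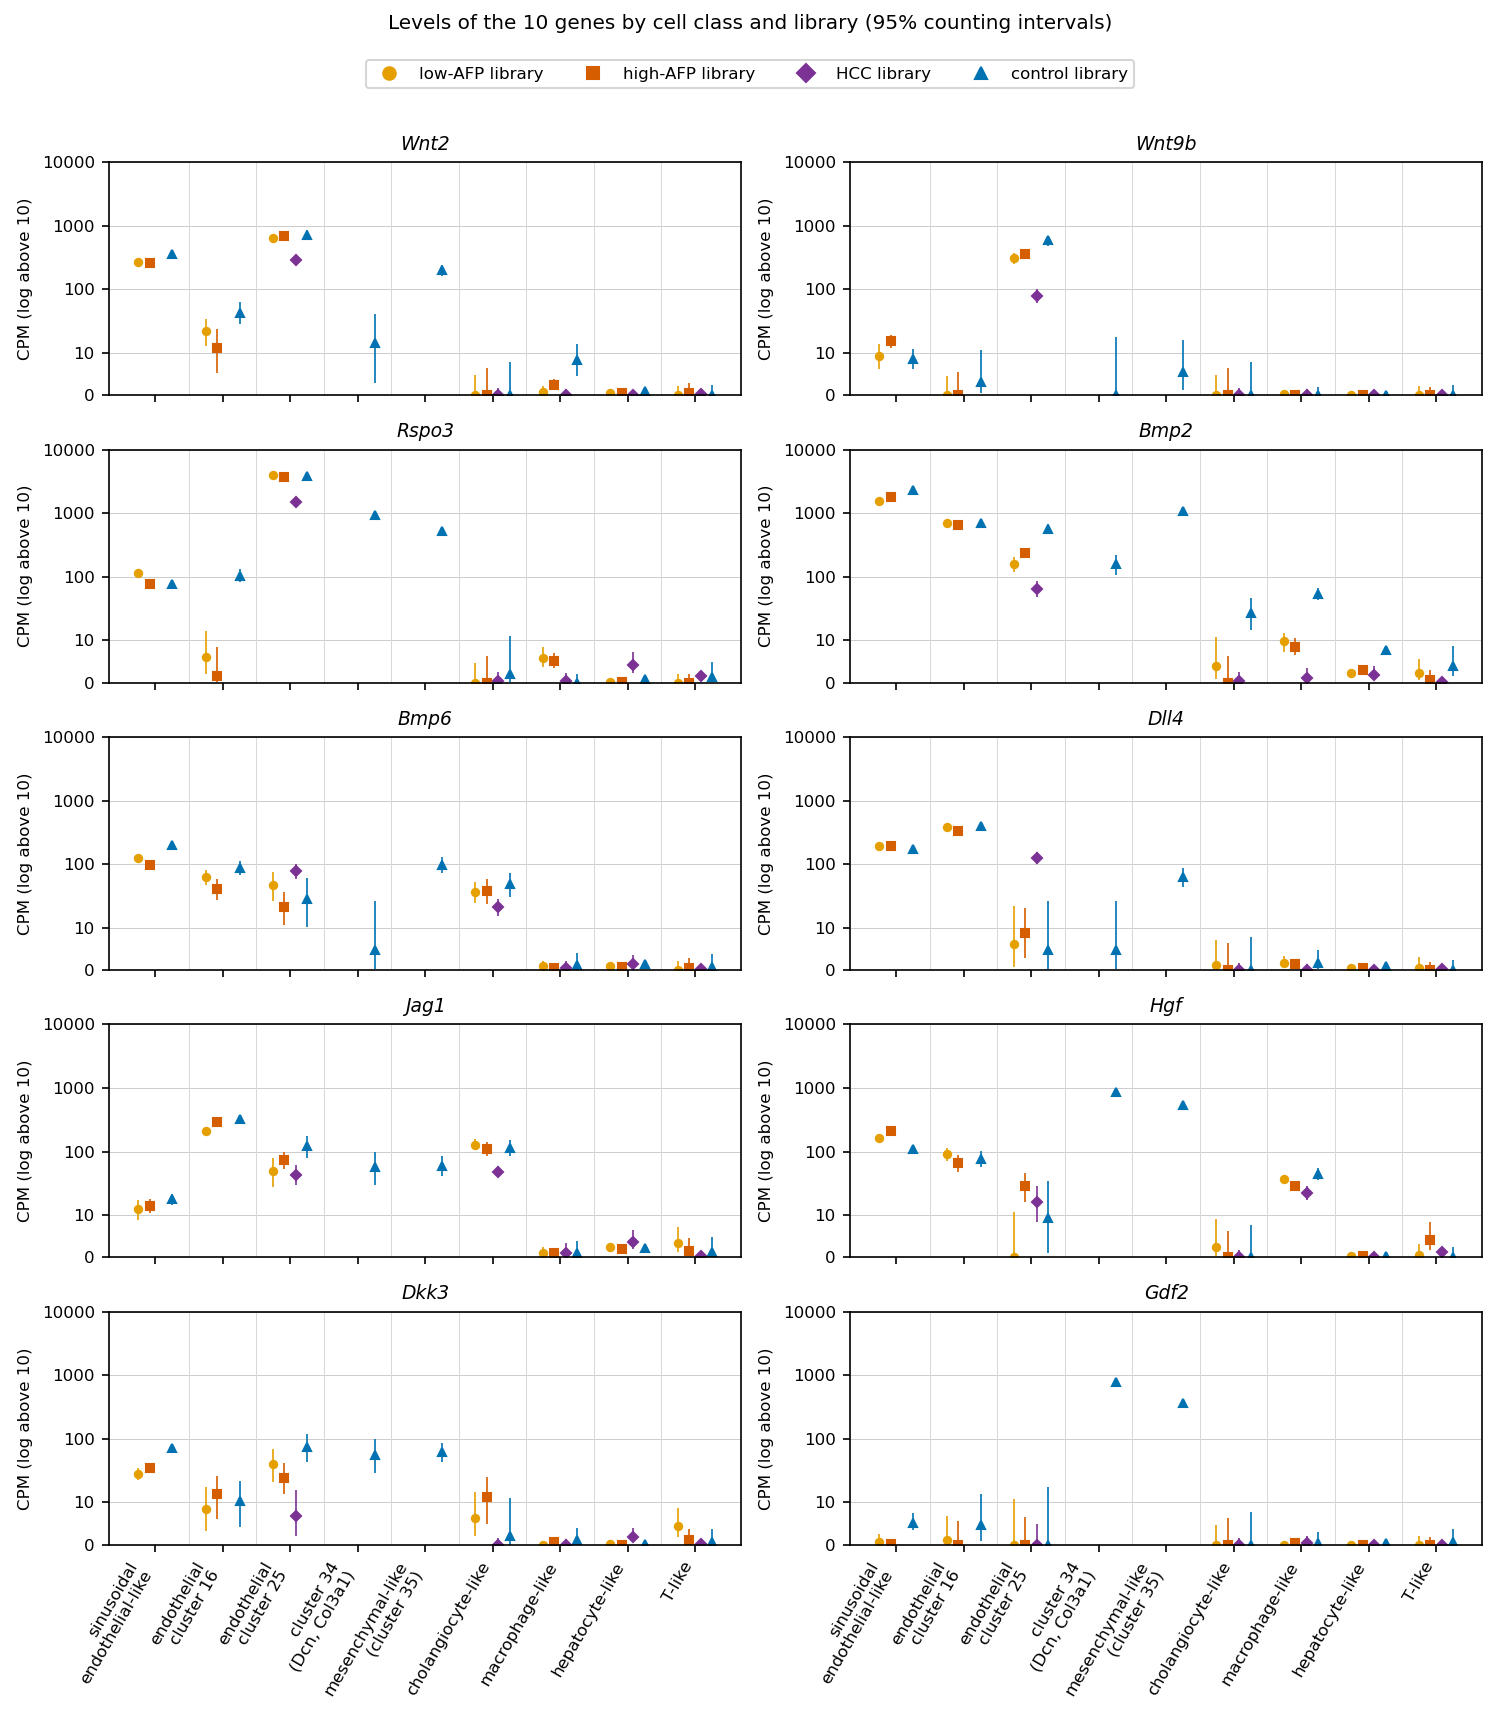
Level of each of the 10 members (vertical axis, CPM, linear below 10 and logarithmic above) in each cell class or cluster with at least 30 cells, with points for the low-AFP, high-AFP, HCC and control libraries and bars for the 95% Poisson interval of the count. Rspo3 and Wnt9b stand highest in cluster 25, Bmp2 in sinusoidal endothelial-like cells, Dll4 and Jag1 in cluster 16, and Gdf2 in clusters 34 and 35 of the control library.

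Bmp2, a BMP ligand that signals hepatocytes to make hepcidin, was the most abundant member in sinusoidal endothelial-like cells: 1573 CPM in the low-AFP library (1527 to 1621), 1769.9 in the high-AFP library (1731 to 1809) and 2335 in the control library (2294 to 2376). A Bmp2 UMI was found in 97.6%, 96.9% and 98.6% of these cells, at median depths of 4727, 4518 and 4479.5 UMIs, against 1.02%, 0.203% and 1.69% of T-like cells. Bmp2 was thus detected in nearly every sinusoidal cell, and both low-AFP and high-AFP levels lay below control, with log2 folds of -0.57 and -0.40. In cluster 16 it stood at 701, 641 and 697 CPM in the low-AFP, high-AFP and control libraries. In cluster 25 it was lower, at 157, 238, 64.5 and 557 CPM in low-AFP, high-AFP, HCC and control cells. In macrophage-like cells Bmp2 had 9.69, 8.43, 1.15 and 53.7 CPM, and control macrophages also held more of the endothelial marker list (346, 368, 239 and 864 CPM) and of the hepatocyte marker list (2925, 2833, 911 and 7107 CPM). The part of such transcripts from other cells in the Bmp2 level of macrophages was not tested.

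Bmp6, which acts beside Bmp2 on hepcidin, in sinusoidal endothelial-like cells had 124 CPM in the low-AFP library (111 to 137), 98.4 in the high-AFP library (89.5 to 108) and 203 in the control library (191 to 215). It was lower in both of the first libraries by ratios of 0.610 and 0.486, with log2 folds of -0.67 and -0.97. Bmp6 was also found in cholangiocyte-like cells, at 36.8, 37.8, 20.8 and 48.1 CPM in the low-AFP, high-AFP, HCC and control libraries. In the HCC library those cells held 46 of its 130 UMIs. In cluster 25 Bmp6 stood at 76.6 CPM in HCC cells (58.0 to 99.2) and 46.1 in low-AFP cells (25.8 to 76.1). It had 21.1 CPM in high-AFP (10.9 to 36.9) and 28.1 in control cells (10.3 to 61.1). The HCC level was the highest, but its interval overlapped those of low-AFP and control cells.

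Gdf2 encodes BMP9, a ligand of the endothelial receptor ALK1. In the control library 203 of its 420 UMIs lay in the mesenchymal-like cluster 35 (368 CPM) and 169 in cluster 34 (796 CPM, 680 to 925). Cluster 35 carried the mesenchymal marker list at 21425 CPM in control cells but also the sinusoidal list at 6808 CPM, and whether its cells are mixtures was not tested. Cluster 34 carried the 2 lists at 43076 and 344 CPM. The low-AFP, high-AFP and HCC libraries held 38, 21 and 7 Gdf2 UMIs in all, with 21, 10 and 0 of them in their 3, 2 and 0 cells of cluster 35. In their 5, 10 and 11 cells of cluster 34, Gdf2 stood at 143 (71.5 to 256), 65.7 (24.1 to 143) and 47.6 CPM (9.81 to 139), below the control level, from 11, 6 and 3 UMIs. In cluster 35 the levels lay on both sides of control, at 265 CPM in low-AFP (164 to 404) and 610 in high-AFP cells (292 to 1121). Both intervals overlapped that of the control cells (319 to 422). With so few cells, fewer captured mesenchymal cells and less Gdf2 per cell cannot be told apart from such totals. In cluster 25 Gdf2 was at 0 UMIs in all 4 libraries.

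Dll4, a Notch ligand of arterial and periportal endothelium, was highest in cluster 16, at 388 CPM in low-AFP cells (347 to 433), 327 in high-AFP cells (285 to 373) and 390.5 in control cells (344 to 441). Sinusoidal endothelial-like cells followed at 191, 195.5 and 175 CPM. In cluster 25 it was near 0 outside the HCC library: 6.15 CPM in low-AFP cells (2 UMIs), 8.80 in high-AFP cells (5 UMIs) and 4.68 in control cells (1 UMI), but 126 in HCC cells (94 UMIs, 102 to 155). A Dll4 UMI was found in 42 of the 90 HCC cells, or 46.7% (exact binomial interval 36.1 to 57.5), and in 2 of 40 low-AFP, 3 of 89 high-AFP and 1 of 37 control cells, against at most 0.254% of T-like cells. Within cluster 25, then, Dll4 was found in more than 3 cells of the HCC library only. Thinned to 1000 UMIs, 4 of 80 HCC cells had a Dll4 UMI, a level near that of 1 UMI from which no change is read. In the HCC cells of cluster 25, Dll4 was found in 9 of 34 cells with Wnt2 and in 33 of 56 without Wnt2.
The 250 bases before the start of Dll4 (chr2:119325534-119325783, plus strand, RefSeq, GRCm38.p6) are shown as those of the Notch ligand that separated the HCC cells of cluster 25, and they held none of the 4 motifs.
Dll4: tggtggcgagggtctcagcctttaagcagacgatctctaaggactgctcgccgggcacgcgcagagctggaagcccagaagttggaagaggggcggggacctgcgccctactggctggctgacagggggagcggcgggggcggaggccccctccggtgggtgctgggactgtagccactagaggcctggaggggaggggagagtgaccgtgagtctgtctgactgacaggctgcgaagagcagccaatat

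Jag1, a Notch ligand of arterial endothelium and bile duct, had 213 CPM in low-AFP cells of cluster 16 (183 to 247), 295 in high-AFP cells (255 to 339) and 325 in control cells (282 to 371). Cholangiocyte-like cells held 128, 109.9, 48.4 and 115 CPM in the low-AFP, high-AFP, HCC and control libraries. Its endothelial and biliary levels were thus of the same order in 3 libraries, while the biliary level was lowest in HCC. In sinusoidal endothelial-like cells it was low, at 12.5, 14.1 and 17.7 CPM in the low-AFP, high-AFP and control libraries. In the HCC library cholangiocyte-like cells held 107 of 261 Jag1 UMIs, monocyte-like cells 63 and large-vessel endothelial-like cells 43.

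Hgf encodes hepatocyte growth factor, the ligand of the hepatocyte receptor MET. Sinusoidal endothelial-like cells held 164 CPM in the low-AFP library (149 to 179), 213 in the high-AFP library (199 to 227) and 109.8 in the control library (101 to 119). A Hgf UMI was found in 42.8%, 48.5% and 30.6% of them (12.6%, 18.03% and 8.14% at 1000 UMIs), against 0.254%, 1.01% and 0% of T-like cells. Hgf had the highest log2 folds over control among the members measured in both libraries, 0.54 in low-AFP and 0.89 in high-AFP cells, both under the 2-fold limit used for calls. Its highest levels in the control library were in cluster 34 (871 CPM) and cluster 35 (542 CPM), which held 14.5% and 23.4% of control Hgf UMIs. In the HCC library most UMIs were in myeloid cells: monocyte-like cells held 158 of 298 UMIs at 12.4 CPM, macrophage-like cells 59 at 22.6 CPM and neutrophil-like cells 22 at 36.0 CPM. The intervals of the macrophage-like and neutrophil-like levels overlapped. The 11 HCC cells of cluster 34 stood higher, at 269 CPM (157 to 431), from 17 UMIs in 4 cells, and endothelial-like cells held 21 UMIs.

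Dkk3 belongs by sequence to a family of secreted Wnt antagonists, though its own effect on Wnt signalling is less settled. Its level in sinusoidal endothelial-like cells was 28.3 CPM in the low-AFP (22.4 to 35.3), 35.01 in the high-AFP (29.8 to 40.9) and 72.5 in the control library (65.5 to 80.0). A Dkk3 UMI was found in 10.985%, 13.04% and 22.9% of those cells (3.27%, 2.60% and 5.95% at 1000 UMIs), against 1.27%, 0.406% and 0.281% of T-like cells. Dkk3 was thus lower in both libraries than in control by level and by share of cells. In cluster 25 it had 39.98, 24.6, 6.72 and 74.8 CPM in low-AFP, high-AFP, HCC and control cells.

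A member was called when its level, with 10 CPM added to each side, differed at least 2-fold between 2 libraries, and it was measured when 1 of the 2 reached 10 CPM. In sinusoidal endothelial-like cells of the low-AFP library against control, 0 of 8 measured members were higher and 1 was lower, with 0.773% of all 9180 measured genes higher and 0.468% lower. That member was Dkk3, with a log2 fold of -1.11 and a ratio of 0.390 (0.303 to 0.498). The high-AFP library gave 0 calls of 9 measured members against control (0.965% of genes higher, 0.559% lower), with Bmp6 at -0.97 and Dkk3 at -0.87 nearest to the limit. High-AFP against low-AFP cells also gave 0 of 9 (0.088% higher, 0.121% lower), with folds between -0.50 for Rspo3 and 0.38 for Wnt9b. These counts of 0 are near the shares of all genes called and are no result about the members. The high-AFP and low-AFP intervals of Hgf (213 against 164 CPM) and of Bmp6 (98.4 against 124 CPM) did not overlap. The hepatocyte marker list, a measure of free hepatocyte RNA, stood at 5227, 4769 and 8531 CPM in these cells in the low-AFP, high-AFP and control libraries, the mesenchymal list at 131, 101 and 404 CPM, and their part in the folds was not tested.

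The sinusoidal cells came from different clusters, cluster 4 holding 532 of 619 low-AFP, 1015 of 1043 high-AFP but 173 of 1334 control cells, and cluster 8 holding 1161 control cells. Within cluster 4 the high-AFP library against control had 2 members higher and 0 lower (0.802% of genes higher, 1.01% lower), Hgf at 212 against 98.0 CPM (log2 fold 1.04) and Wnt9b at 15.5 against 1.40 CPM (69 against 1 UMI). Low-AFP against control gave 0 calls in cluster 4 (0.682% and 0.65%), where Dkk3 had 25.6 CPM in low-AFP and 42.0 CPM in control cells. The Dkk3 call was thus lost within cluster 4. Wnt2 turned there to 252 CPM in low-AFP and 257 in high-AFP against 160 in control cells, while Bmp6 stayed lower, at 125 and 99.7 against 178 CPM. In cluster 8, with 87 low-AFP cells, Wnt2 had 371 CPM in low-AFP and 383 in control cells, and Bmp6 112 and 206 CPM. Cluster 8 also held 45 of the 46 Wnt9b UMIs of control sinusoidal cells, so the control cells of cluster 4 nearly lacked Wnt9b. The median log2 fold of the measured members was 0.208 in low-AFP and 0.255 in high-AFP cells of cluster 4. Over the whole class it was -0.345 and -0.199. The part of the cluster mixture in the class folds was not tested.

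Other genes of these pathways in sinusoidal endothelial-like cells were compared in the same way. Of 6 measured Wnt receptors and co-receptors, 9 BMP receptors and co-receptors, 3 Notch receptors and ligands and 5 Notch targets, 0 were called in low-AFP (0.773% of all genes higher, 0.468% lower) or high-AFP against control (0.965% and 0.559%), counts that do not stand apart from those shares. The Wnt receptor gene Fzd4, for example, had 239.96 CPM in low-AFP and 239.89 CPM in control cells. Of 8 measured BMP targets, 0 were called in low-AFP cells and 1 was lower in high-AFP cells, Id2, a helix-loop-helix inhibitor gene induced by BMPs, at 179 against 404 CPM (log2 fold -1.14). The median log2 fold of the 8 was -0.43 in low-AFP and -0.38 in high-AFP cells, beside -0.01 and -0.03 for all genes.

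In large-vessel endothelial-like cells, 0 of 9 measured members were called in low-AFP against control (0.775% of genes higher, 0.467% lower), in high-AFP against control (1.06% and 0.584%) and in high-AFP against low-AFP (0.362% and 0.437%). Within cluster 16, Rspo3 was lower in low-AFP than in control cells (1.18% of genes higher, 0.571% lower), and Wnt2, at 12.04 against 42.9 CPM, and Rspo3 were lower in high-AFP than in control cells (1.32% and 0.772%). HCC against control gave 0 members higher and 5 of 9 lower (4.35% and 7.24% of genes): Bmp2 at 84.1 against 662 CPM (log2 fold -2.84), Jag1 at 55.6 against 275 CPM (-2.12), Hgf at 15.5 against 59.99 CPM (-1.46), Dkk3 at 6.47 against 26.5 CPM (-1.15) and Dll4 at 137 against 295 CPM (-1.05). Because 90 of the 94 HCC cells but 37 of the 169 control cells were of cluster 25, these values compare different mixtures of the 2 clusters. In cluster 25 alone, without a minimum number of cells, Dll4 went the other way, at 126 CPM in HCC against 4.68 CPM in control cells (3.22), as did Hgf at 16.1 against 9.35 CPM (0.43, 12 against 2 UMIs).

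Cluster 25 itself had enough cells to compare HCC with high-AFP, 90 against 89 cells. Of 9 measured members 2 were higher in HCC and 5 lower, where 3.48% of all measured genes were higher and 4.5% lower. Dll4 had 126 against 8.80 CPM, a ratio of 14.4 (5.94 to 45.2, log2 fold 2.86), and Bmp6 76.6 against 21.1 CPM, a ratio of 3.63 (1.92 to 7.43, log2 fold 1.48). Lower were Wnt9b (log2 fold -2.05), Bmp2 (-1.73), Rspo3 (-1.26), Wnt2 (-1.23) and Dkk3 (-1.05, 5 against 14 UMIs). The 3 central-vein Wnt signals were thus lower together in the HCC cells, by ratios of 0.220, 0.415 and 0.419 for Wnt9b, Rspo3 and Wnt2, while Dll4 was higher. HCC cells of cluster 25 carried the large-vessel marker list at 7249 CPM, against 6597 in high-AFP cells, the sinusoidal list at 1618 against 2093 CPM and the hepatocyte list at 919 against 4186 CPM. At a finer clustering, 87 of these HCC cells formed a cluster with 2 low-AFP and 0 high-AFP or control cells, so a difference of cell type and one of library cannot be told apart. That finer cluster stayed unnamed. It scored 2.763 for platelet or megakaryocyte markers, of which 0 passed the detection limit, and 2.363 for endothelial markers, with 3.176 for the large-vessel list. The endothelial name of the HCC cells is therefore unsure.

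Other Notch genes of cluster 25 are given with Dll4, and the counts of this paragraph stand beside 3.48% of all genes higher and 4.5% lower. Of 4 measured Notch receptors and ligands besides the members, 2 were higher in HCC than in high-AFP cells: the endothelial receptor Notch4 at 105 against 28.2 CPM, and the ligand Jag2 with 21 against 0 UMIs. Of 6 measured Notch targets, Hes1 at 388 against 179.5 CPM and Hey1 at 32.3 against 7.04 CPM were higher and 0 lower, and the median log2 fold of the 6 was 0.87 beside -0.06 for all genes. Of 8 measured BMP targets, 0 were higher and 4 lower, among them Id2 at 208 against 465 CPM and Smad6 at 107.5 against 238 CPM. The other 2, Hamp at 1.34 against 144 CPM and Hamp2, are hepatocyte transcripts, and the hepatocyte list was lower in the HCC cells too. Of 10 measured Wnt receptors and regulators 0 were called.

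Along the sinusoid, cells were placed by their UMIs of 8 pericentral genes, among them Kit, Thbd and Cdh13, as a share of these and 8 periportal genes, among them Efnb2, Ltbp4 and Msr1. Shares of at most 1/3, between, and of at least 2/3 gave a periportal, a middle and a pericentral range of 265, 252 and 100 low-AFP cells, 437, 440 and 165 high-AFP cells and 777, 353 and 199 control cells. Of these, 170, 300 and 223 cells lay near a limit. No member is on either list.

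Rspo3 had 10.4, 45.8 and 455 CPM from the periportal to the pericentral range in the low-AFP library, 3.01, 28.2 and 335 in the high-AFP library and 6.62, 27.2 and 422 in the control library. Its ratios of the ends were 43.8, 111 and 63.7. Wnt2 had 109.6, 246 and 611 CPM in low-AFP cells, 103, 282 and 505 in high-AFP cells and 180, 463 and 776 in control cells. Pericentral over periportal, the Wnt2 ratio was 5.57 in the low-AFP (4.50 to 6.94), 4.88 in the high-AFP (4.08 to 5.86) and 4.30 in the control library (3.84 to 4.83). The Wnt signals hence stood highest in the pericentral range of all 3 libraries, and Wnt9b had 19, 57 and 41 UMIs there against 1, 0 and 0 in the periportal range.

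Dll4 ran the opposite way, with 228, 198 and 107 CPM from periportal to pericentral in low-AFP cells, 259, 184 and 100.05 CPM in high-AFP cells and 236, 119 and 56.5 CPM in control cells. Bmp6 had 66.9 CPM in the pericentral against 167 CPM in the periportal range of low-AFP cells, 61.7 against 119 in high-AFP cells and 166 against 209 in control cells. For Bmp2 the ratio of the ends was 0.808, 0.747 and 1.03 in the low-AFP, high-AFP and control libraries. For Hgf it was 1.13 in low-AFP (0.881 to 1.44), 0.946 in high-AFP (0.785 to 1.14) and 0.581 in control cells (0.437 to 0.761), so the interval left out 1 in the control library only. For Dkk3 it was 0.755 in low-AFP (0.386 to 1.41), 1.44 in high-AFP (0.922 to 2.24) and 1.89 in control cells (1.45 to 2.45), where again only the control interval left out 1. Fabp4 gave 78.0%, 73.3% and 51.1% of the pericentral UMIs and stood at 3419, 2894 and 1212 CPM in the class, so the ranges need not be the same stretch of the sinusoid in each library. Without Fabp4 and Cd36 the Wnt2 ratios were 6.58, 6.46 and 4.52 and the Dll4 ratios 0.164, 0.122 and 0.234. Without those genes the Dkk3 ratios were 1.79 (0.810 to 3.55), 1.43 (0.770 to 2.50) and 1.94 (1.42 to 2.61), so the low-AFP ratio turned to the other side of 1, and the Hgf ratios were 1.31, 1.17 and 0.490, where the high-AFP ratio turned.

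**Figure D3:**
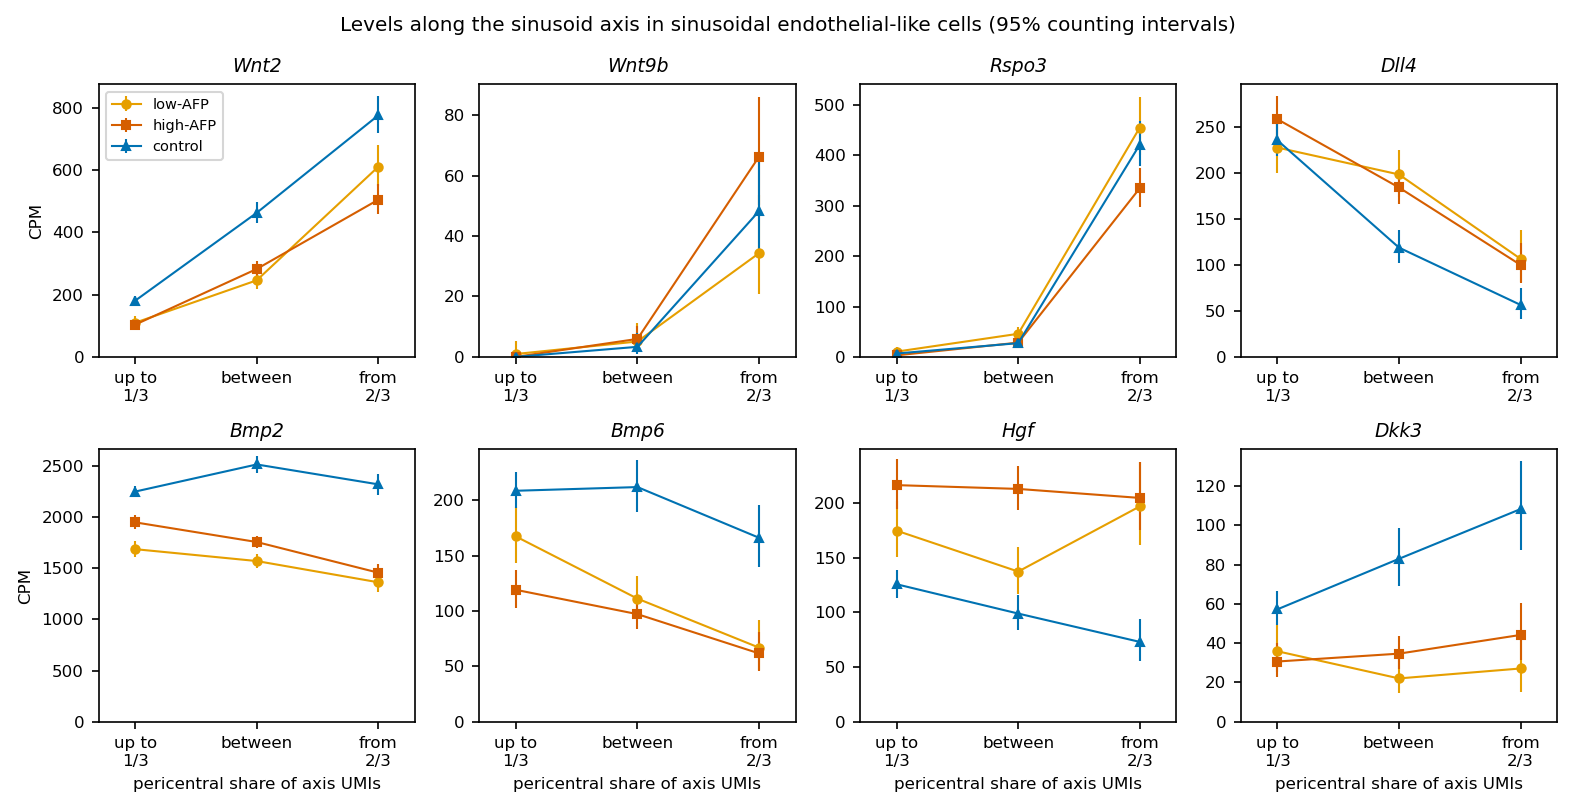
Level of 8 members (vertical axis, CPM) in sinusoidal endothelial-like cells of the periportal, middle and pericentral ranges (horizontal axis), with 1 line per library for low-AFP, high-AFP and control and bars for the 95% Poisson interval. Wnt2, Wnt9b and Rspo3 stand highest and Dll4 lowest in the pericentral range of all 3 libraries.

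Cholangiocyte-like cells (70, 60, 104 and 54 in the low-AFP, high-AFP, HCC and control libraries) had 3 or 4 measured members in a comparison. HCC against control had 2 of 3 lower, Jag1 (log2 fold -1.10, ratio 0.421) and Bmp2, and 0 higher (6.59% of genes higher, 9.12% lower). HCC against high-AFP had 2 of 3 lower, Jag1 (-1.04) and Dkk3, and 0 higher (4.3% and 6.47%). Bmp2 in these cells rested on 13 UMIs in control cells, with 3 in low-AFP (2.65% higher, 1.04% lower) and 0 in high-AFP cells (3.65% and 2.34%), and it was called lower in both, as 1 of 3 and 1 of 4 measured members. In macrophage-like cells Bmp2 was the member called lower against control in the low-AFP (log2 fold -1.69; 0.646% of genes higher, 1.47% lower), high-AFP (-1.79; 0.466% and 2.07%) and HCC libraries (-2.52; 1.13% and 6.52%). In hepatocyte-like and T-like cells 0 members reached 10 CPM in any library.

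The cells that receive these signals were described by the target genes of each pathway in hepatocyte-like cells, of which the libraries held 2067, 3553, 457 and 2594. Of 18 Wnt target genes, 17 were measured in HCC against control and all 17 were higher, with a median log2 fold of 1.90 beside 0.21 for all genes (11.2% of genes higher, 5.15% lower). They included Glul, the pericentral glutamine synthetase gene, at 3970 against 310.1 CPM, Slc1a2 at 1227 against 39.4 CPM, and the feedback inhibitors Nkd1 at 153 against 0.853 CPM and Axin2 at 47.0 against 2.81 CPM. Of 9 measured Wnt receptors and co-receptors 3 were higher and 0 lower, Lgr5, Rnf43 and Znrf3, and all 3 are also on the target list. The target list in HCC against high-AFP cells had 16 of 17 higher (4.26% and 2.83%). Within hepatocyte cluster 0, which held 377 of the 457 HCC but 433 of the 2594 control cells, 2 of 6 measured targets were higher (6.22% of genes higher, 5.04% lower): Glul at 1060 against 161 CPM and Oat at 1007 against 333 CPM. Cluster 0 held 1542 of the 13087 Glul UMIs of the HCC hepatocyte-like cells, so most Glul UMIs of the class came from the cells outside cluster 0, 42 of them in cluster 3. Of all 3296759 nuclear-encoded UMIs of the class in HCC, cluster 0 held 1455244, so the few other cells weigh heavily in its sums. The class leaves out 2 unnamed HCC clusters: cluster 18 (403 cells, led by Oat and Glul) and cluster 21 (306 cells, led by haemoglobin genes, Akr1c18 and Afp). HCC hepatocyte-like cells had a median of 2696 UMIs against 17078, 12350 and 13210.5 in the low-AFP, high-AFP and control libraries, and the part of depth was not tested.

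Targets of the BMP ligands include Hamp, the hepcidin gene. Of 8 measured in HCC hepatocyte-like cells, 0 were higher and 4 lower than in control, where 11.2% of all genes were higher and 5.15% lower. The 4 were Hamp at 442 against 2180 CPM, Hamp2 at 60.1 against 295 CPM, Id2 at 221 against 472 CPM and Smad7 at 6.07 against 22.5 CPM. The same shares stand beside the Notch and HGF lists below. Hamp and Hamp2 were lower within cluster 0 as well, at 812 against 4099 and 54.3 against 374 CPM (6.22% of genes higher, 5.04% lower). Of 3 measured Notch targets, Sox9, a biliary transcription factor, at 8.49 against 45.4 CPM and Hes1 at 43.1 against 128 CPM were lower. The HGF receptor gene Met stood at 44.0, 43.5, 26.1 and 49.99 CPM in the low-AFP, high-AFP, HCC and control libraries. Of the 7 measured genes of the HGF receptor and activation list, Plat, the tissue plasminogen activator gene, was higher in HCC (359 UMIs against 1). The genes of 3 plasma proteases were lower: Klkb1 at 67.9 against 342 CPM, F2 at 454 against 1173 CPM and Hgfac, whose product activates pro-HGF, at 72.8 against 157 CPM.

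Low-AFP and high-AFP hepatocyte-like cells differed less from control. In low-AFP cells 0 of 8 measured Wnt targets were higher and 1, Oat, was lower at 172 against 419 CPM (0.96% of genes higher, 0.473% lower), and 0 of 8 BMP targets were called. In high-AFP cells Lect2 at 124 against 55.4 CPM and Cyp7a1 at 41.2 against 15.1 CPM were the Wnt targets called higher, and Hamp2 at 601 against 295 CPM the BMP target (1.45% and 0.725%). Within cluster 0, however, Hamp was lower, at 1825 CPM in high-AFP against 4099 CPM in control cells (1.96% of genes higher, 3.68% lower).

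**Figure D4:**
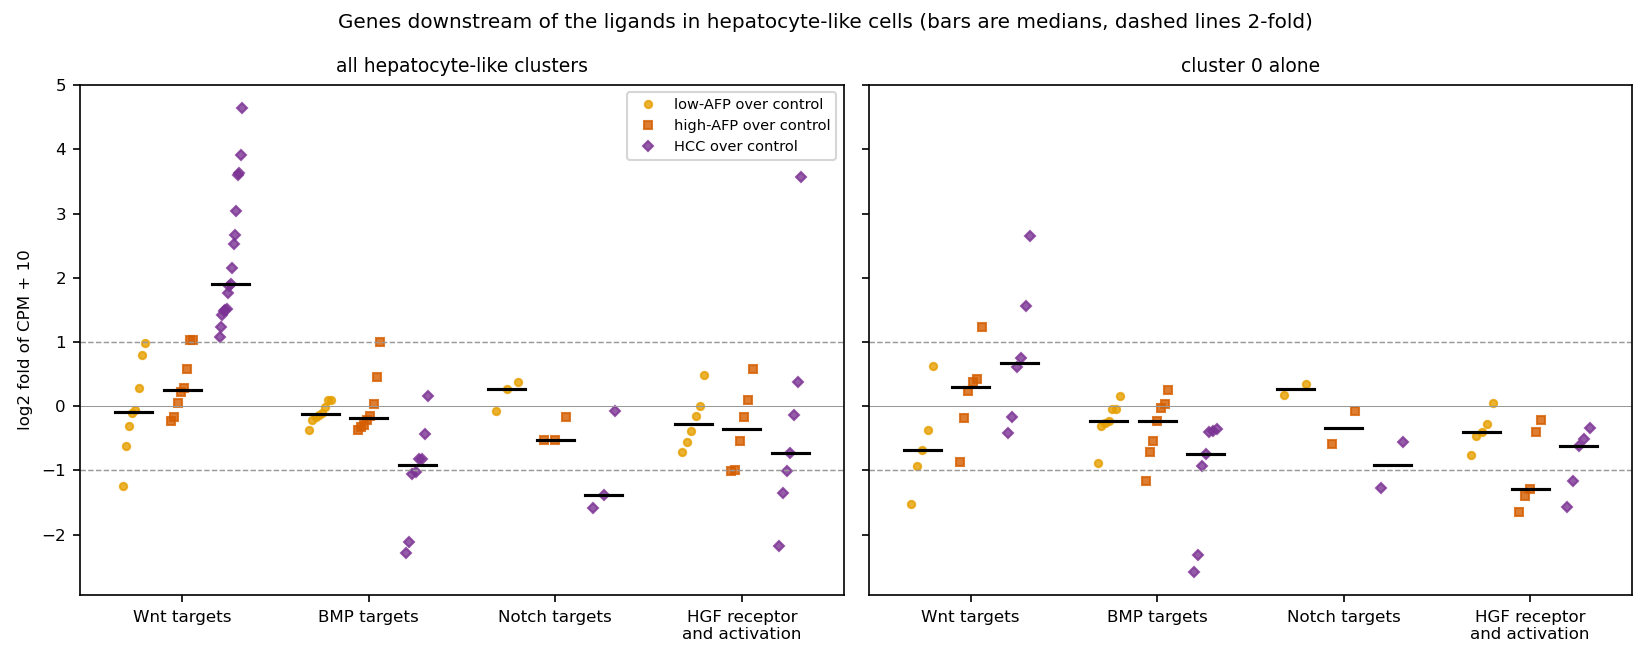
Log2 fold over control (vertical axis, after adding 10 CPM) of each measured gene (points, with bars for the list's median and dashed lines at 2-fold) of the Wnt target, BMP target, Notch target and HGF receptor and activation lists in hepatocyte-like cells of the low-AFP, high-AFP and HCC libraries, over all hepatocyte clusters and in cluster 0 alone. Over all clusters the HCC points of the 17 measured Wnt targets lie above 1, while Hamp lies below -1.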

How the data were processed

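The deposited files hold whole-number UMI counts per gene and barcode, made with Cell Ranger (version 3.0.2, per the file headers). The submitters' processing notes also name mm9, R 3.0 and Seurat 3 in no stated role. Kept barcodes had 300 genes or more, 500 UMIs or more and no more than 30% of UMIs from mitochondrial genes. Scrublet's automatic threshold marked 8, 5, 0 and 12 barcodes in the low-AFP, high-AFP, HCC and control libraries, under 0.5% in each, so the highest-scoring barcodes were left out instead, 0.8% for every 1000 barcodes (230, 575, 513 and 323). Pairs of libraries shared at most 0.507% of their barcodes.

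Cells were clustered with Scanpy 1.11.5 in Python 3.11.15, with NumPy 2.4.6, SciPy 1.17.1 and leidenalg 0.10.2, on 1991 variable genes without the members (30 components, 15 neighbours, Leiden resolution 1), into 37 clusters, of which 30 were named from marker lists. Counts were summed per class and library and scaled to CPM of nuclear-encoded UMIs. Differences were compared only with at least 50 cells in both libraries, except where a smaller number is given. Intervals are Poisson for levels, exact binomial for shares and conditional binomial for ratios, at 95%. Of the steps, only the fold calls and the Poisson and exact binomial intervals were tested on simulated counts, which held counting error only.

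The members, marker lists and pathway lists were chosen with earlier results of these data known. Genes were named by membership of these lists, and no test was made because each group is 1 library. Alternatives for normalization, pseudocount, filters, doublets and clustering were tried.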

Additional observations from a re-analysis of the deposited data

How the results depend on the processing

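No paired analysis was possible because each group is 1 library and the results come from no test. Of 655 log2 folds of members recomputed under the alternatives, 558 stayed within their counting interval, 95 moved beyond it and 2 were counted as reversed. Those were Dll4 (3.22) and Hgf (0.43) in large-vessel cells of HCC against control, with cluster 25 alone and no cell minimum. Both had been called lower over the class. Folds that were not called changed sign too, such as Wnt2 in sinusoidal endothelial-like cells within cluster 4. The counts of members called moved as follows. In sinusoidal endothelial-like cells, low-AFP against control gave 0 with the mean of the cells' CPM and within cluster 4. High-AFP against control gave 2 lower with 1 CPM added (Bmp6, Dkk3), 1 lower over all endothelial-like cells (Bmp6) and 2 higher within cluster 4 (Wnt9b, Hgf). In large-vessel cells, high-AFP against control gave 1 (Bmp6 lower) with 1 CPM added, without doublet removal, with the mean of the cells' CPM and without the cell with most UMIs. High-AFP against low-AFP gave 1 at Leiden resolution 2 (Hgf), with the mean of cells and without the top cell (Wnt9b). With cluster 25 alone and no cell minimum, low-AFP against control gave 2, high-AFP against control 2, high-AFP against low-AFP 1 (Hgf) and HCC against control 8 (6 lower, with Dll4 and Bmp6 higher). Cluster 25 held only 40 low-AFP and 37 control cells. Apart from cluster 4, no share of all genes called stands beside the counts under these alternatives, so they are not read as results about the members. An endothelial-like class held the highest level in 35 of 40 pairs of member and library, and in 23 at resolution 2. The low-AFP pair of Gdf2 among the 35 rested on 1 UMI. At resolution 2, 87 HCC cells lay in an unnamed cluster, and the only large-vessel cluster held 3 HCC and 38 control cells. The part of this naming and of the minimum of 50 cells in the fall to 23 was not tested. The alternatives on cluster 4, cluster 25, cluster 27, hepatocyte cluster 0 and the lists without Fabp4 and Cd36 were chosen after seeing the data. 8 combinations were not run because fewer than 50 cells were left. Of 70 shares of cells 61 moved with thinning.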

Other observations

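Over 44 sums of a cell class in a library, the genes whose log2 levels were most like those of the members, out of 8379 genes, are given by Pearson's r as a description, since the points share libraries and cell classes. For Wnt2 they were Myct1 (0.996), Robo4 (0.996) and Fgd5 (0.994), and for Wnt9b Igfbp5 (0.979), Fam198b (0.966) and Wscd1 (0.961). For Rspo3 they were Plvap (0.981), Cdh13 (0.973) and Ednrb (0.972). Bmp2 was most like Oit3 (0.993), Cyp4b1 (0.991) and Clec4g (0.985), and Bmp6 most like Vangl1, Sparc and Sema6a (0.968 in each). For Dll4 they were Shank3 (0.983), Clec1a (0.981) and Sox17 (0.978). Gdf2 was most like Tnfrsf11b (0.997), Pde3a and Adamts13 (0.996 in both), whereas the highest value for Hgf was 0.926, with Mfsd5.

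Cluster 18, an unnamed cluster led by Oat and Glul, held 403 HCC cells. Its levels there were 8619 CPM for Glul, 9007 for Oat, 269 for Nkd1, 84.1 for Axin2 and 28.0 for Hamp. This cluster is not part of the hepatocyte-like class.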
